A study of Mus musculus and Rattus norvegicus with 36 samples.

Results

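The 10 genes described here code for interleukin 33 (Il33), the interleukin 1 receptor antagonist (Il1rn) and 8 acute phase proteins: alpha-2-macroglobulin (A2m), lipocalin 2 (Lcn2), orosomucoid 1 (Orm1), haptoglobin (Hp), C-reactive protein (Crp) and the 3 fibrinogen chains (Fga, Fgb and Fgg). They were taken by symbol, with every probe set annotated to that symbol alone. This gave 14 probe sets on the rat array and 12 on the mouse array, for 10 of the 14217 rat genes and 10 of the 18193 mouse genes with such a probe set. Il33 has 2 rat probe sets, Fga 2 and Fgb 3, and in the mouse Il1rn has 3.

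The study asked how dietary selenium (Se), from deficiency to excess, changes liver and kidney transcripts. Male weanling mice of a colony on a predominantly C57 black background ate a Se-deficient torula-yeast diet without added Se, with 0.05 μg Se/g as selenite or with 0.2 μg Se/g for 35 days, and liver and kidney RNA of 3 mice per diet was hybridized. Male weanling Holtzman rats ate the same basal diet for 28 days with no added Se, with 0.08 or 0.24 μg Se/g as selenite, or with the higher amounts of 0.8 μg/g, 2 μg/g and 5 μg/g, and liver RNA of 3 rats per diet was hybridized. Every group, controls included, thus shared the vitamin E and methionine supplemented torula-yeast base, and livers were perfused before freezing. The Se-adequate controls were 0.2 μg/g in mice and 0.24 μg/g in rats. By the paper's text the rats fed 0.08 and 0.8 μg/g belonged to one rat study and the other rats to a second, and the arrays of each study and of each mouse tissue were processed on their own, so that levels are set side by side between them without a test.

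Acute phase proteins are plasma proteins that hepatocytes make in larger or smaller amounts during inflammation, mainly under interleukin 6 through Stat3, and under interleukin 1 and tumor necrosis factor through NF-kB and the Cebp factors. Interleukin 33 belongs to the interleukin 1 family. It is a nuclear protein of barrier and stromal cells, in liver chiefly of stellate and endothelial cells, that acts as an alarm signal through the receptor Il1rl1 once cells release it. The interleukin 1 receptor antagonist blocks the interleukin 1 receptor and is itself made by liver during an acute phase response.

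Array medians of the deposited log2 values lay between 6.17 and 6.29, and r across probe sets between replicate arrays of a group ran from 0.972 to 0.997. Gpx1, a selenoprotein whose mRNA falls in Se deficiency, checked the diet labels: its mean log2 level was 12.26 without and 14.12 with 0.24 μg/g in rat liver, 12.98 without and 14.13 with 0.2 μg/g in mouse liver, and 12.55 without and 13.81 with 0.2 μg/g in mouse kidney. In rat liver replicate 1 at 2 μg/g stood apart, with 1964 probe sets more than 2-fold from the mean at 0.24 μg/g, against 136 and 147 in the other 2 arrays of that diet. Calls that involve the 2 μg/g diet are therefore also given without it. The hepatocyte markers averaged a log2 level of 13.37 to 13.56 in every rat liver array.

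Il33 was the 1 gene of the 10 that fell at 5 μg Se/g in rat liver, and both of its probe sets did so. On the brighter probe set the log2 levels were 10.43, 10.09 and 10.51 at 0.24 μg/g and 8.65, 9.49 and 8.93 at 5 μg/g. On the other probe set they were 10.18, 9.57 and 9.99 at 0.24 μg/g and 8.45, 8.79 and 8.18 at 5 μg/g. The groups did not overlap on either probe set, and replicate 2 was the highest of the 3 arrays at 5 μg/g on both. The log2 change was −1.32 ± 0.21 (SE, 3 against 3 arrays, 95% confidence interval −1.78 to −0.86, limma adjusted p = 0.0067), a level of 40.1% of the control. The second probe set gave −1.44 ± 0.19 (−1.87 to −1.02, limma adjusted p = 0.0031), or 36.8% of the control. Of the 14 member probe sets these 2 were called at an adjusted p under 0.05, while 2.82% of all 31042 rat probe sets were called in this comparison and 0.609% were called lower. By p-value the 2 probe sets ranked 236 and 95 of all. In RNA of whole liver, fewer cells of a type and less RNA per cell cannot be told apart. The paper already gives Il33 as lower on its highest Se diet, in a list of known targets of the stress response factor Nrf2. It does not mark Il33 there as specific to Se. That mark was kept for genes that did not overlap with those altered by general toxicity or calorie restriction. The paper also reports reduced growth and raised plasma markers of liver damage in the rats on that diet. Whether reduced growth or liver damage had a part in the lower Il33 was not tested.

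Both calls for Il33 held with any 1 of the 6 compared arrays left out, with log2 changes from −1.55 to −1.13 on the first probe set and from −1.62 to −1.30 on the second, and adjusted p up to 0.037 and 0.017. Without replicate 1 of the 2 μg/g diet, which enters the shared estimate of spread, both were called too.

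**Figure D1:**
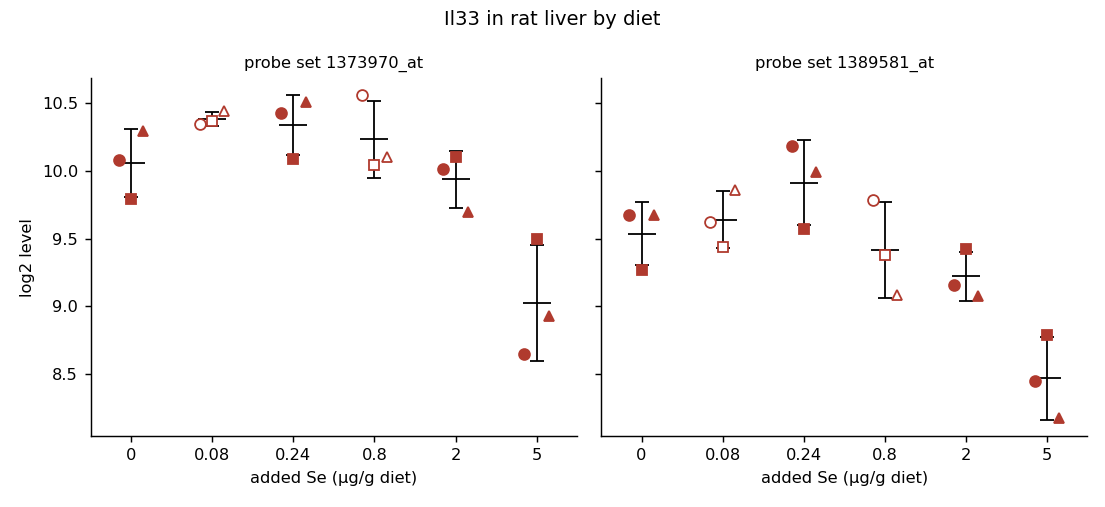
Log2 level of Il33 in rat liver (y axis) on its 2 probe sets by added Se in μg/g diet (x axis), with each array as a point (circle, square and triangle for replicates 1, 2 and 3), open points for the separately processed diets of 0.08 and 0.8 μg/g, and a bar with whiskers for the mean ± SD of 3 arrays. On the left panel the arrays at 5 μg/g lie between 8.65 and 9.49 and the 15 others between 9.70 and 10.56.

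At the other diets Il33 lay above its level at 5 μg/g in every array. Its log2 levels on the brighter probe set were 10.08, 9.79 and 10.29 without added Se, 10.34, 10.37 and 10.45 at 0.08 μg/g, 10.56, 10.04 and 10.10 at 0.8 μg/g, and 10.01, 10.10 and 9.70 at 2 μg/g. In the order of their means, 0.08, 0.24, 0.8, 0 and 2 μg/g, each of these diets overlapped its neighbours, and the 3 arrays at 5 μg/g lay below all 15 others. On the other probe set the arrays at 5 μg/g lay apart too, with 8.18 to 8.79 at 5 μg/g against 9.08 to 10.18 in the other arrays.

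At 2 μg/g neither Il33 probe set was called. The log2 change from 0.24 μg/g was −0.40 ± 0.21 (95% confidence interval −0.87 to 0.06, adjusted p = 0.35) on the first, whose arrays overlapped the control. On the second it was −0.69 ± 0.19 (−1.12 to −0.27, adjusted p = 0.32), and there the levels of 9.16, 9.42 and 9.08 lay below the lowest control array at 9.57. Without replicate 1 at 2 μg/g the changes were −0.44 (−0.97 to 0.09) and −0.66 (−1.15 to −0.18), with an adjusted p of 0.81 for both. In this comparison 0 of 14 member probe sets were called by limma and 3 had an unadjusted p under 0.05, while 0.00322% of all rat probe sets were called.

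Between 5 and 2 μg/g the log2 change of Il33 was −0.91 ± 0.21 (95% confidence interval −1.38 to −0.45, adjusted p = 0.042) on the brighter probe set, which was called. On the other it was −0.75 ± 0.19 (−1.17 to −0.33, adjusted p = 0.059), which was not. That made 1 of 14 member probe sets, beside 3.34% of all called and 1.21% called lower. This call rested on single arrays: it was lost without replicate 1 or 2 at 2 μg/g, without replicate 1 or 3 at 5 μg/g and with the 2 diets fitted alone (adjusted p = 0.20). Without replicate 1 of the 2 μg/g diet 0 of the 14 member probe sets were called. The contrasts of 5 μg/g with 0.24 and with 2 μg/g share the 3 arrays at 5 μg/g.

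In Se deficiency Il33 did not pass the test. Against 0.24 μg/g the log2 change was −0.29 (95% confidence interval −0.75 to 0.18) on the first and −0.38 (−0.80 to 0.05) on the second probe set. No member probe set passed: 0 of 14 were called by limma and 0 had an unadjusted p under 0.05, with 0.00322% of all probe sets called. The same gene differed by −0.15 (−0.48 to 0.18) and −0.22 (−0.65 to 0.20) between 0.8 and 0.08 μg/g. In that comparison 0 of 14 member probe sets and 0% of all were called by limma, and 1 member probe set had an unadjusted p under 0.05.

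The promoter sequence of Il33 is shown because it was the member that fell. It comes from the RefSeq table of the mouse (GRCm38.p6), while the fall was measured in rat, so the letters give the context of the mouse gene only. The 250 bases before each of the 2 annotated starts follow, 5′ to 3′ on the gene's strand, with capitals for any match to the searched motifs CTGGGAA and TTCNNNGAA (as Stat3 sites are written), TTGCNNAA (Cebp), GGGNNTTCC (NF-kB), TGACNNNGC (Nrf2) and ACANNNTGT (glucocorticoid receptor), each on both strands.
Il33, first start, chr19:29924863-29925112, + strand: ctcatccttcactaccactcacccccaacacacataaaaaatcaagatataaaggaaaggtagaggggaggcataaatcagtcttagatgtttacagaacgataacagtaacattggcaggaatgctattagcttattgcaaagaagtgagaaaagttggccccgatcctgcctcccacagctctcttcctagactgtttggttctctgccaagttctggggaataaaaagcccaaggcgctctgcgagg
Il33, second start, chr19:29945540-29945789, + strand: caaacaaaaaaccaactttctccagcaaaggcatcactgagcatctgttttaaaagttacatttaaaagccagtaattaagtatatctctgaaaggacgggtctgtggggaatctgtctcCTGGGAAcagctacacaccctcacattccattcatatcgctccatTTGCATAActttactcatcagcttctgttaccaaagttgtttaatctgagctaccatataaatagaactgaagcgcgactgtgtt
The first window held 0 matches. The second held CTGGGAA beginning 130 bases and TTGCNNAA beginning 85 bases before the start. Of 32851 mouse promoters listed there, 9.1% hold CTGGGAA, 9.56% TTGCNNAA, 7.02% TTCNNNGAA, 4.98% GGGNNTTCC, 10.2% TGACNNNGC and 5.84% ACANNNTGT in a window of the same length, so a match to any of these short motifs is common. A match here is a description of letters and not a binding site.

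The genes whose level ran most like that of Il33 over the 12 arrays of the rat study with 0, 0.24, 2 and 5 μg/g were Adipor2, a receptor for adiponectin (Pearson r = 0.936), Stard5, a lipid transfer protein (0.919), Glp2r, the receptor for glucagon-like peptide 2 (0.919), Inhbc, an inhibin beta subunit made by liver (0.915), and Plin2, a coat protein of lipid droplets (0.908). By Pearson r they were the highest of 14207 genes. The rank correlations (Spearman) were 0.839, 0.713, 0.750, 0.783 and 0.860 in the same order. These values describe arrays that share diets and processing, and the 3 arrays at 5 μg/g hold the lowest Il33 levels among the 12.

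Genes of the cells known to make Il33 moved in both directions at 5 μg/g. Lrat, the enzyme by which stellate cells store vitamin A as esters, fell from 8.95, 9.41 and 8.88 at 0.24 μg/g to 6.50, 6.08 and 8.34 at 5 μg/g (log2 change −2.11 ± 0.47, adjusted p = 0.037). Reln, a secreted protein of stellate cells, fell by 1.95 on the log2 scale (adjusted p = 0.022), with 7.37, 7.81 and 9.47 at 5 μg/g. Col1a1, a fibrillar collagen chain, rose by 1.62 ± 0.22 (adjusted p = 0.0034) and Des, the intermediate filament desmin, by 0.93 ± 0.16 (adjusted p = 0.011). Of the 8 stellate cell and fibroblast markers 2 thus rose, 2 fell and 4 were not called, beside 4.09% of all genes called. Their mean log2 level ran from 7.38 to 7.89 at 0.24 and from 7.37 to 8.05 at 5 μg/g, which overlapped.

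Among the 6 measured endothelial cell markers 3 rose and 3 were not called. Pecam1, an adhesion molecule of endothelium, rose by 0.92 ± 0.13 (adjusted p = 0.0036), and Vwf, a clotting glycoprotein, and Tek, a receptor for angiopoietins, rose by 1.11 and 0.62. The mean level of these markers was 9.18 to 9.43 at 0.24 and 9.56 to 9.59 at 5 μg/g. Of 6 Kupffer cell and macrophage markers 1 fell, Clec4f, a lectin of Kupffer cells, by 1.78 on the log2 scale (adjusted p = 0.014), and their mean level was 9.24 to 9.52 at 0.24 and 8.89 to 9.05 at 5 μg/g. The cytokeratin Krt19 of bile duct cells rose by 2.63 ± 0.32 (adjusted p = 0.0018) and was 1 of 5 measured bile duct markers called. Of 8 hepatocyte, 4 neutrophil, 4 lymphocyte, 7 kidney and 3 red blood cell markers 0 were called by limma. The mean level of the red blood cell markers was nevertheless 7.92 to 8.82 at 0.24 and 8.94 to 9.57 at 5 μg/g, with a median log2 change of 1.17, and that of the lymphocyte markers 5.55 to 5.87 and 5.96 to 6.18. Neither pair of ranges overlapped, nor did the dim kidney markers, at 4.70 to 4.87 and 4.60 to 4.69. The bile duct, hepatocyte and neutrophil markers overlapped, at 5.70 to 6.52 and 6.36 to 7.21, at 13.45 to 13.51 and 13.39 to 13.45, and at 5.97 to 6.47 and 5.80 to 6.43. Whether these cell type markers had a part in the lower Il33 was not tested. For genes taken with 1 probe set each, 4.09% of all 14217 were called at 5 μg/g. With 1 of the 6 compared arrays left out, Col1a1, Pecam1 and Krt19 were called in 6 of 6 fits and Des in 4, but Clec4f, Vwf and Tek in 2 and Lrat and Reln in 1.

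**Figure D2:**
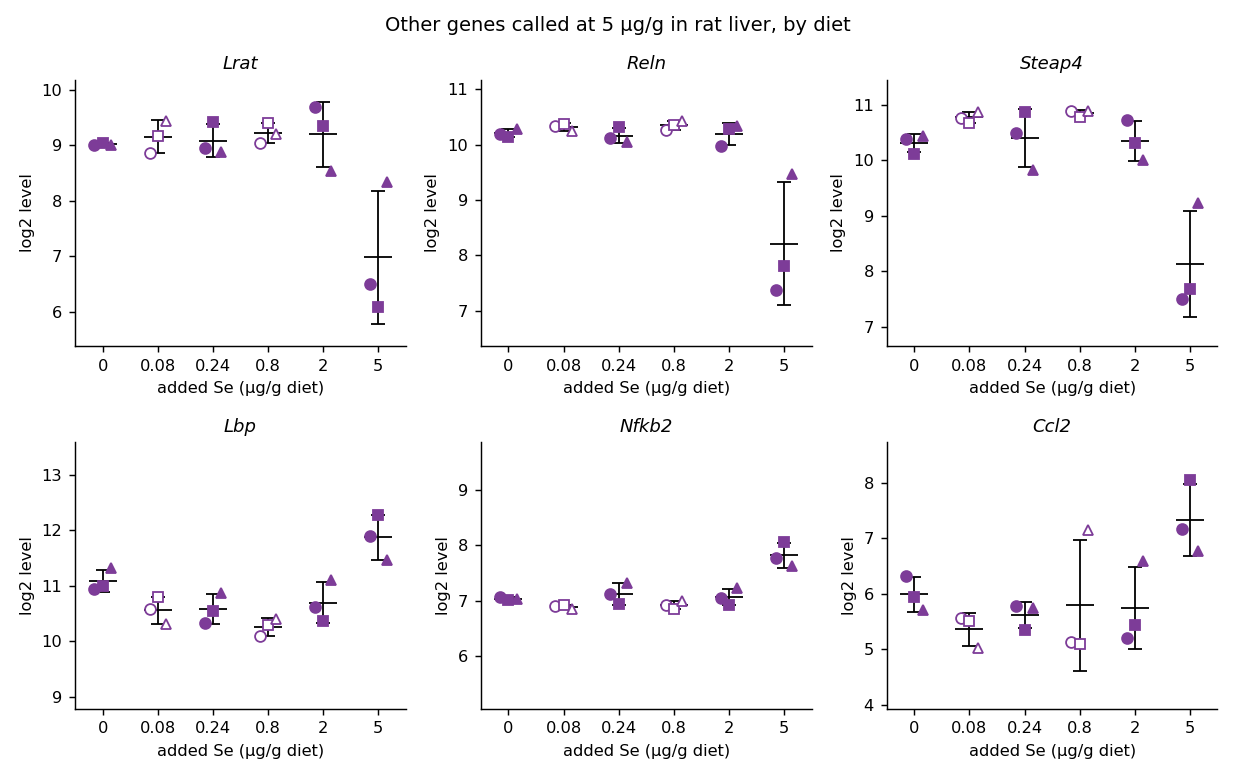
Log2 level (y axis) of Lrat, Reln, Steap4, Lbp, Nfkb2 and Ccl2 in rat liver by added Se in μg/g diet (x axis), with points, open points and whiskers as for Il33 (single arrays by replicate, separately processed diets, mean ± SD of 3 arrays) and each axis spanning the same number of log2 units. Steap4 at 5 μg/g lies between 7.49 and 9.23, below the 9.83 to 10.89 of the other 15 arrays, and Lbp between 11.46 and 12.27, above their 10.09 to 11.31.

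The receptor side of Il33 showed no called gene. Of 12 measured genes of the Il33 receptor and type 2 immunity 0 were called at 5 μg/g by limma, beside 4.09% of all genes. Their median log2 change was −0.11 beside −0.0044 for all genes. Their mean log2 level was 6.06 to 6.11 at 0.24 and 5.92 to 5.95 at 5 μg/g, with no overlap. The dim kidney markers, at 4.70 to 4.87 and 4.60 to 4.69, did not overlap either, so such a gap is not particular to this list. The 4 with the smallest p were Il13, a type 2 cytokine (−0.23), Rora, a nuclear receptor of innate lymphoid cells (−0.64), Il4r, a receptor chain for interleukins 4 and 13 (−0.27), and Arg1, the urea cycle enzyme arginase (0.17), with adjusted p from 0.46 to 0.51. Il1rl1, the receptor for Il33 itself, had a log2 change of −0.13 ± 0.12 (adjusted p = 0.69).

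Of 29 measured genes of the interleukin 1 family and NF-kB signalling 4 rose, 1 fell and 24 were not called at 5 μg/g. In the same comparison 4.09% of all genes were called. Nfkb2, an NF-kB subunit, rose from 7.12, 6.94 and 7.33 to 7.77, 8.07 and 7.62 (log2 change 0.69 ± 0.13, adjusted p = 0.019). Ccl2, a chemokine that draws monocytes, rose by 1.71 ± 0.37 (adjusted p = 0.030), Tnfaip3, an inhibitor of NF-kB signalling, by 1.10 ± 0.25 (adjusted p = 0.036), and Il1r2, the decoy receptor for interleukin 1, by 0.69 ± 0.16 (adjusted p = 0.046). Il18bp, the binding protein that neutralizes interleukin 18, fell by 0.80 on the log2 scale (adjusted p = 0.046). The median of the list was 0.16. Its mean log2 level ran from 7.82 to 7.94 at 0.24 and from 8.06 to 8.25 at 5 μg/g, with no overlap. Such a gap was also seen for the dim kidney markers. The calls in this list depended on single arrays: with 1 of the 6 compared arrays left out 0 to 5 of the 29 were called. There were 0 called without replicate 1 or 2 at 0.24 or at 5 μg/g and 1 called without replicate 3 at 0.24 μg/g. Nfkb2 was called in 2 of the 6 fits, Ccl2, Tnfaip3 and Il1r2 in 1 and Il18bp in 0, so no fit called all 5 named genes. Against 2 μg/g 5 of the 29 rose, namely Nfkb2, Nfkbia, Cxcl1, Ccl2 and Il1r2, and 0 fell, beside 4.52% of all genes called. Without replicate 1 at 2 μg/g 0 of the 29 were called, with adjusted p from 0.057 to 0.16 for these 5 genes, and with the 2 diets fitted alone 0 were called. Over all probe sets the calls numbered 238 and 9 in those fits, beside 1037. Without replicate 2 at 2 μg/g or replicate 1 or 2 at 5 μg/g 0 of the 29 were called too, and without replicate 3 at 2 μg/g 12 were.

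Il1rn, the natural antagonist of interleukin 1, was not called at any diet. Its log2 levels in rat liver were 7.13, 6.97 and 7.0 at 0.24 μg/g, 6.41, 6.60 and 6.98 at 2 μg/g and 7.06, 7.25 and 6.88 at 5 μg/g. The arrays at 5 μg/g overlapped the control, with a log2 change of 0.03 (95% confidence interval −0.28 to 0.34, adjusted p = 0.96). At 2 μg/g the change was −0.37 (−0.68 to −0.06, adjusted p = 0.32), and −0.25 (−0.55 to 0.05) without replicate 1. Leaving out replicate 3 of the 2 μg/g diet instead gave −0.53 with an adjusted p of 0.016.

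None of the 8 acute phase genes passed the test in rat liver at 5 μg/g. A2m, a protease inhibitor and the classic strong acute phase protein of the rat, varied widely between rats. Its log2 levels were 9.08, 8.94 and 9.01 at 0.24 μg/g but 8.42, 10.54 and 9.51 at 5 μg/g, so that the 3 arrays at 5 μg/g lay on both sides of the control. The log2 change was 0.48 ± 0.49 (95% confidence interval −0.58 to 1.55, adjusted p = 0.72), an interval that spans 0.667 to 2.92 times the control. Without replicate 1 at 5 μg/g it was 1.02 (adjusted p = 0.41) and without replicate 2 it was −0.04 (adjusted p = 0.99). One array without added Se reached 10.10 while the other 2 were at 8.75 and 8.86. Between 0.8 μg/g (9.79, 8.70 and 9.30) and 0.08 μg/g (8.29, 8.45 and 8.69) A2m did not overlap, and the change of 0.79 ± 0.25 was not called (adjusted p = 0.97).

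Lcn2, which binds bacterial siderophores to withhold iron, was the most variable of the 10 genes in rat liver. Its 18 rat arrays spanned 5.28 to 9.17 on the log2 scale, a 14.9-fold range, while the 6 diet means spanned 0.85. At 0.24 μg/g the levels were 7.80, 7.27 and 8.14 and at 5 μg/g 7.98, 8.01 and 7.42, which overlapped (log2 change 0.06, 95% confidence interval −1.06 to 1.19, adjusted p = 0.98). The lowest value, 5.28, was replicate 1 at 0.08 μg/g, whose other 2 arrays were at 7.86 and 7.98. The highest, 9.17, was replicate 3 at 0.8 μg/g. Without that low array the change from 0.08 to 0.8 μg/g moved from 0.85 to −0.03.

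Orm1, a lipocalin of plasma that binds drugs and steroids, had the smallest adjusted p among the acute phase genes at 5 μg/g when each was taken with its brightest probe set. Its log2 levels were 13.55, 13.47 and 13.64 at 0.24 μg/g and 14.02, 14.20 and 13.84 at 5 μg/g. The groups did not overlap, yet the change of 0.47 ± 0.16 (95% confidence interval 0.13 to 0.81) had an adjusted p of 0.17. Levels without added Se, at 13.90, 13.88 and 13.72, also lay above the control and overlapped those at 5 μg/g. With array weights Orm1 was called at 5 μg/g (log2 change 0.52, adjusted p = 0.0070), a setting under which 3184 of all 31042 probe sets were called in place of 875, and without replicate 1 of the 2 μg/g diet its adjusted p was 0.051.

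Hp and the 3 fibrinogen chains were near the top of the scale. Haptoglobin, which binds free hemoglobin, lay between 14.45 and 14.65 on all 18 rat arrays, above at least 99.9% of probe sets, and the highest value of any rat probe set was 15.03. Its change at 5 μg/g was 0.08 (95% confidence interval −0.09 to 0.25, adjusted p = 0.69). Fibrinogen, the precursor of fibrin, is a hexamer with a pair of each chain. For Fgg, the gamma chain, the whole range over the 18 arrays was 0.08, for Fgb, the beta chain, 0.16, and for Fga, the alpha chain, 0.29. At 5 μg/g their changes were 0.03 (−0.13 to 0.19), 0.08 (−0.08 to 0.24) and 0.01 (−0.19 to 0.21). How near probe sets this bright are to saturation was not tested. A second Fga probe set with levels of 12.18 to 13.53 changed by −0.21 (−0.68 to 0.26), and the other 2 Fgb probe sets lay between 3.34 and 5.42, below the array medians. The dimmer of these gave −0.36 (−0.60 to −0.12, adjusted p = 0.12) at 5 μg/g, with no overlap, while the bright Fgb probe set gave a change of the other sign.

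Crp, the pentraxin that binds phosphocholine, was abundant in rat liver at every diet. At 0.24 μg/g its log2 levels were 13.57, 13.45 and 13.95 and at 5 μg/g 13.95, 13.89 and 13.80, which overlapped. The change was 0.22 ± 0.21 (95% confidence interval −0.24 to 0.69, adjusted p = 0.70).

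**Figure D3:**
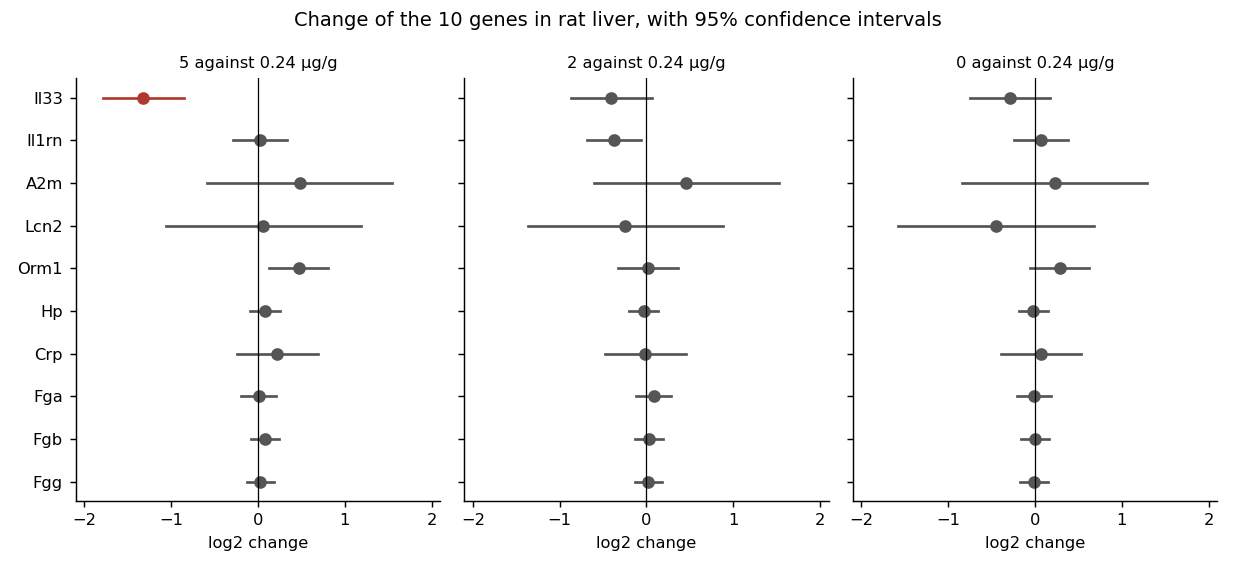
Log2 change (x axis) of each of the 10 genes (y axis, the probe set with the highest mean) in rat liver at 5, 2 and 0 μg/g added Se against 0.24 μg/g, with the limma estimate as a point and its 95% confidence interval as a line. Il33 at 5 μg/g, in red, is the 1 called gene at −1.32, and the intervals of A2m and Lcn2 are the widest.

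**Figure D4:**
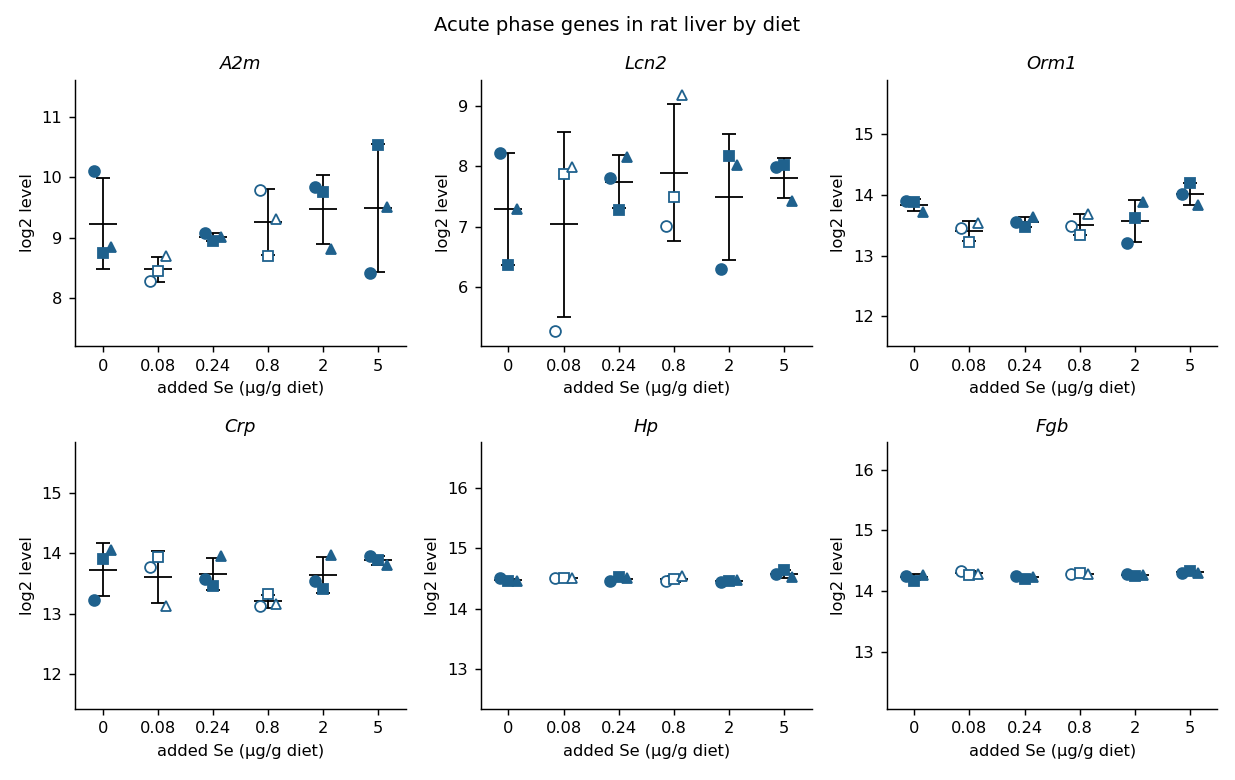
Log2 level (y axis) of A2m, Lcn2, Orm1, Crp, Hp and Fgb in rat liver by added Se in μg/g diet (x axis), with single arrays as points (circle, square and triangle for replicates 1, 2 and 3, open for the separately processed diets), mean ± SD of 3 arrays as whiskers and each axis spanning the same number of log2 units. The Lcn2 arrays spread from 5.28 to 9.17 and the Hp arrays from 14.45 to 14.65.

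Most other acute phase proteins were not called at 5 μg/g. Of 20 measured genes on a list of other positive acute phase genes 1 rose, 1 fell and 18 were not called, beside 4.09% of all genes called. Their median log2 change was 0.03. Lbp, the plasma protein that carries bacterial lipopolysaccharide to Cd14, rose from 10.34, 10.54 and 10.87 to 11.90, 12.27 and 11.46 (log2 change 1.29 ± 0.23, adjusted p = 0.012). Steap4, a metalloreductase induced by inflammatory cytokines and not a plasma protein, fell from 10.49, 10.87 and 9.83 to 7.49, 7.68 and 9.23 (−2.26 ± 0.40, adjusted p = 0.012). Neither pair of groups overlapped. With 1 array left out 0 to 2 of the 20 were called, with 0 called without replicate 1 at 0.24 μg/g or replicate 1 or 2 at 5 μg/g and 1 called without replicate 2 at 0.24 μg/g. The next by p were Serpina3n, a serine protease inhibitor, and Fgl1, a fibrinogen-like protein of hepatocytes, at 0.27 and 0.50 with adjusted p of 0.22 and 0.26.

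Of 12 measured negative acute phase proteins 1 fell and 11 were not called at 5 μg/g, where 4.09% of all genes were called. Their mean log2 level was 13.77 to 13.83 at 0.24 and 13.66 to 13.74 at 5 μg/g, with no overlap, as was also so for the dim kidney markers. Serpina6, the corticosteroid-binding globulin of plasma, fell from 13.31, 13.15 and 13.27 to 12.37, 12.68 and 12.32 (−0.79 ± 0.13, adjusted p = 0.0091). Among 16 genes of coagulation and fibrinolysis 2 rose: Plat, tissue plasminogen activator, by 0.83 ± 0.16 (adjusted p = 0.018) and F3, tissue factor, by 0.48 ± 0.10 (adjusted p = 0.033). With 1 compared array left out Serpina6 was called in 5 of 6 fits, Plat in 3 and F3 in 1. Neither Plat nor F3 is chiefly a hepatocyte product, and the other 14 were not called. Of 20 genes of Il6, Stat3 and Cebp signalling 0 were called by limma. The smallest p values were those of Nr3c1, the glucocorticoid receptor (−0.40), Il6st, the shared receptor chain gp130 (0.52), Cebpd, a transcription factor of the acute phase (0.48), and Stat3 itself (0.77), with adjusted p from 0.22 to 0.26. Of 11 receptors and clearance genes 0 were called by limma. The smallest p values were those of Itgb3, an integrin chain that binds fibrinogen (−1.16, adjusted p = 0.13), Itgam, an integrin chain of myeloid cells (0.40, adjusted p = 0.25), and Cd163, the haptoglobin receptor of macrophages (−0.24, adjusted p = 0.37). Between 0.24 and 5 μg/g the mean levels of the other positive acute phase, coagulation, Il6 signalling and receptor lists overlapped.

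Most acute phase genes had probe sets near the top of the scale in mouse liver, while the mouse probe sets of Il33 and A2m lay near its lower end. Levels of different probe sets on different arrays are given here as values and not compared. On its 1 mouse probe set Il33 lay at 4.39, 4.20 and 4.34 without added Se, 4.34, 4.32 and 4.52 at 0.05 and 4.34, 4.34 and 4.28 at 0.2 μg/g, above only 16.5% to 17.3% of probe sets. A2m lay between 4.90 and 5.19. So far under the array median, a fall would be hard to detect, and whether these probe sets would show a rise was not tested. A2m is known as an acute phase protein in the rat and not in the mouse. No mouse diet was above 0.2 μg/g, so the diet at which rat Il33 fell has no counterpart in the mouse.

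In Se deficiency 0 of 12 member probe sets were called in mouse liver by limma and 0 had an unadjusted p under 0.05, beside 0.0222% of all 45037 called. The largest change was that of Lcn2, from 7.85, 8.32 and 8.41 at 0.2 μg/g to 8.39, 9.0 and 8.18 without added Se, which overlapped (log2 change 0.33, 95% confidence interval −0.89 to 1.55). The other 9 genes, each on its brightest probe set, had log2 changes from −0.05 to 0.13 with intervals within −0.25 to 0.35. The dimmest Il1rn probe set gave −0.20 (−0.60 to 0.20).

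Lcn2 split the 3 mice fed 0.05 μg/g. Replicates 1 and 3 stood at 10.43 and 10.51, and replicate 2 at 7.92, beside 7.85 to 9.0 in the 7 mouse liver arrays other than those 2. Serum amyloid A genes, which code for major acute phase proteins of the mouse, were highest in the same arrays: Saa1 was at 12.98, 11.13 and 13.02 and Saa2 at 11.70, 9.99 and 12.35 in replicates 1, 2 and 3. The other 7 arrays reached 12.39 for Saa1 and 11.18 for Saa2. Orm2, an orosomucoid, was at 9.22, 8.11 and 10.27, and there replicate 1 lay within the 8.11 to 9.32 of the other arrays. Saa3, an amyloid A protein made outside hepatocytes too, was at 9.19, 8.26 and 11.23, against a highest value of 9.02 in the others. Hp was also highest in replicates 1 and 3, at 14.46 and 14.52 beside 14.22 in replicate 2 and at most 14.39 in the 0 and 0.2 μg/g arrays. Without replicate 2 its log2 change was 0.24 (95% confidence interval 0.06 to 0.41, adjusted p = 1.0). Crp, the fibrinogens and Orm1 did not set these 2 arrays apart together, and ranged over at most 0.47 in the 9 liver arrays.

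As a group the 0.05 μg/g diet was not called for Lcn2, with a log2 change of 1.43 ± 0.55 (95% confidence interval 0.20 to 2.65, adjusted p = 1.0). Leaving out replicate 2 gave 2.28 (1.76 to 2.80, adjusted p = 0.12) and leaving out replicate 3 gave 0.98 (−0.30 to 2.26). In this comparison 0 of 12 member probe sets and 0% of all were called by limma, and 1 member probe set had an unadjusted p under 0.05. The mean level of the Kupffer cell and macrophage markers was 8.86, 8.69 and 9.71 and that of the neutrophil markers 7.12, 6.97 and 7.46 in replicates 1, 2 and 3, against 8.37 to 8.83 and 6.94 to 7.02 at 0.2 μg/g. Without added Se the Kupffer cell and macrophage mean ran from 8.28 to 9.56. The lymphocyte markers averaged 6.55, 6.53 and 7.22 in replicates 1, 2 and 3, against 6.41 to 6.59 at 0 and 0.2 μg/g. Their part in the Lcn2 levels was not tested.

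**Figure D5:**
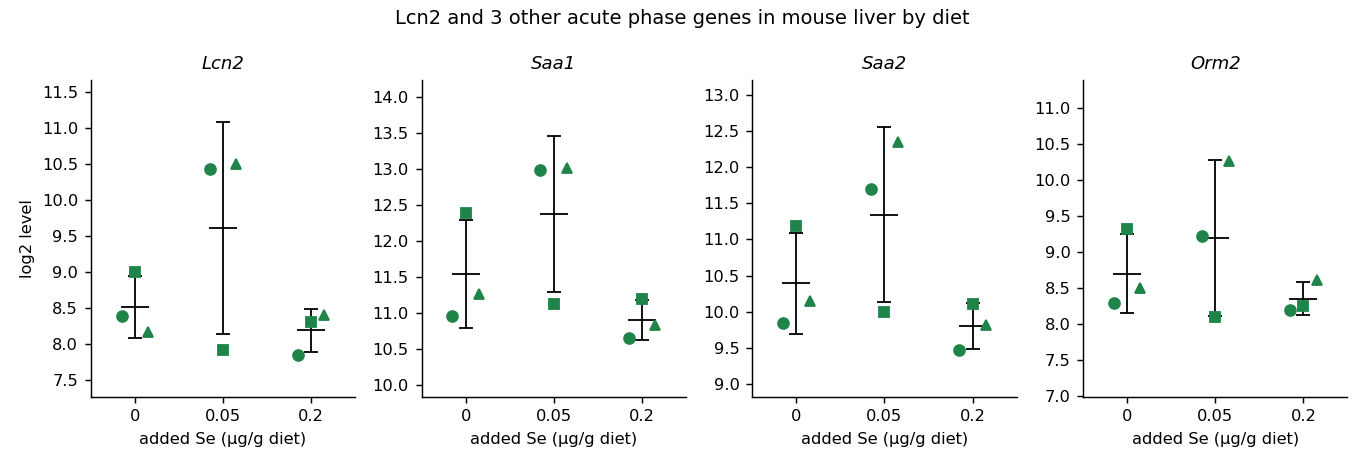
Log2 level (y axis) of Lcn2, Saa1, Saa2 and Orm2 in mouse liver by added Se in μg/g diet (x axis), with each array as a point (circle, square and triangle for replicates 1, 2 and 3), mean ± SD of 3 arrays as whiskers and each axis spanning the same number of log2 units. At 0.05 μg/g the circle and the triangle of Lcn2 lie at 10.43 and 10.51 and the square at 7.92.

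Mouse kidney, which makes little of these plasma proteins, had low levels of most members: Hp lay at 6.40 to 6.91, Crp at 5.76 to 6.13 and Orm1 at 3.55 to 4.33, beside 14.19 to 14.52, 12.03 to 12.50 and 13.13 to 13.52 in the separately processed liver arrays. Il33 was at 4.91 to 5.59 and Il1rn, on its brightest kidney probe set, at 7.65 to 7.98. With Se deficiency 0 of 12 member probe sets were called by limma and 0 had an unadjusted p under 0.05, beside 0.00666% of all. At 0.05 μg/g 0 of 12 were called and 0 had an unadjusted p under 0.05, beside 0% of all.

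The fibrinogen chains stood out in 1 kidney array. In replicate 2 at 0.2 μg/g Fgb was at 6.67, Fga at 7.84 and Fgg at 7.71, whereas the 8 other kidney arrays held 4.65 to 5.39, 6.76 to 7.44 and 5.89 to 7.04. The hepatocyte gene Alb, serum albumin, was at 10.56 in that array and 7.96 to 9.58 in the others, Apoa1, the main apolipoprotein of high density lipoprotein, at 7.28 and 6.66 to 7.03, and the mean of the 7 hepatocyte markers at 6.94 and 6.31 to 6.67. Among the other members, Hp and Crp reached at most 6.73 and 6.01 in the kidney arrays at 0.2 μg/g. Both lay below their highest values without added Se, 6.91 and 6.13, whereas Orm1 had its highest kidney value, 4.33, at 0.2 μg/g. Whether hepatocyte genes such as Alb have a part in the fibrinogen levels of replicate 2 at 0.2 μg/g was not tested. With this array the log2 changes of Fgb and Fgg in Se-deficient kidney were −0.25 (95% confidence interval −1.16 to 0.66) and −0.71 (−1.46 to 0.04), and without it 0.37 (0.02 to 0.72, adjusted p = 0.99) and −0.37 (−1.07 to 0.34).

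For none of the 12 member probe sets did the test show a different response to Se deficiency in mouse liver and kidney. By limma 0 passed the test of that difference and 0 had an unadjusted p under 0.05, beside 0.00222% of all. The difference, liver minus kidney, was largest for Fgg at 0.74 (95% confidence interval −0.05 to 1.52, adjusted p = 0.83) and for Lcn2 at 0.73 (−0.66 to 2.12). Without the kidney array just described the difference for Fgg was 0.40 (−0.28 to 1.07, adjusted p = 0.92).

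The fibrinogen genes are neighbours on mouse chromosome 3, and their promoters are shown because all 3 transcripts stood highest in the same kidney array and lay near the top of the scale in every liver array. The 250 bases before each RefSeq start (GRCm38.p6) follow, 5′ to 3′ on the gene's strand, with capitals for matches to the motifs given for Il33.
Fga, chr3:83025903-83026152, + strand: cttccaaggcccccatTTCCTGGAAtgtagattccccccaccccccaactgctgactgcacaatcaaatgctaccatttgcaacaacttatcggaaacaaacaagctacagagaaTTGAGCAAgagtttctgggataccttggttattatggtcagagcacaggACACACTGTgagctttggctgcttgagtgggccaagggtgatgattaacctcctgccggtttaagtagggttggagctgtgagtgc
Fgb, chr3:83049864-83050113, − strand: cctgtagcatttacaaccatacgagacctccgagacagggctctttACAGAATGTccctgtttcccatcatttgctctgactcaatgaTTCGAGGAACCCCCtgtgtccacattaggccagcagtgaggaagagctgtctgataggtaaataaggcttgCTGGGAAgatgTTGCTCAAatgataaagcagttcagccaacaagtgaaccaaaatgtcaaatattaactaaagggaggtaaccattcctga
Fgg, chr3:83007474-83007723, + strand: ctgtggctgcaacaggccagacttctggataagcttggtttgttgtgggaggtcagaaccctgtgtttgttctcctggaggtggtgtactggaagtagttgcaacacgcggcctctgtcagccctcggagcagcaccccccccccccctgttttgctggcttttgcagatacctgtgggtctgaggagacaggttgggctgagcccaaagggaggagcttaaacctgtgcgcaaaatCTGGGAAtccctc
Fgb held 5 matches, 1 each of CTGGGAA, TTGCNNAA, TTCNNNGAA, GGGNNTTCC and ACANNNTGT, where the TTCNNNGAA and GGGNNTTCC matches overlap. Fga held 3, of TTCNNNGAA, TTGCNNAA and ACANNNTGT, and Fgg held 1, CTGGGAA, beginning 13 bases before its start. Promoters were matched for 7 of the 10 genes.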

How the data were processed

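The authors deposited 1 log2 expression value per probe set and array, for 18 mouse and 18 rat arrays (Affymetrix, 1 colour). The submitters' processing notes name GCRMA with no version, and the methods text gives RMA, applied to each study and each mouse tissue apart. The values were used as deposited, with 57 rat and 64 mouse array controls left out and no filter on signal, and 0 per-sample columns were unused. Gene symbols come from the platform annotation: 20826 rat and 34945 mouse probe sets have 1 symbol, 436 and 932 several, 9780 and 9160 none. A genome build is not given in the sources used here.

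With R 4.3.3 and limma 3.58.1, lmFit with 1 coefficient per diet and eBayes were run on the 12 arrays of rat study 2, the 6 of rat study 1 and the 9 of each mouse tissue, and on all 18 mouse arrays for the comparison of tissues. P-values were adjusted by Benjamini-Hochberg over all 31042 rat or 45037 mouse probe sets, and 0.05 was the threshold. Intervals are 95% confidence intervals from limma. Each array holds RNA of 1 animal by the labels, and 3 arrays per group limit the precision. The methods give 3 mice per diet, so both tissues come from the same mice. The labels do not match the arrays by mouse, and the comparison of tissues treats them as independent.

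The members and the gene and marker lists were chosen with earlier results of these data known. Where several probe sets share a gene, it is represented by the brightest in the fit. Named list genes are up to 4 with the smallest p and every called gene of a list with under 10 calls, and Lrat, Reln, Steap4, Lbp, Nfkb2 and Ccl2 were drawn from these. The Saa genes and Orm2 in the mouse, and Alb and Apoa1 in kidney, were named after their values were seen. The fit was tested on simulated data. For 0 against 0.2 μg/g in mouse liver, deviations from the group means in same-numbered arrays gave r of 0.462, 0.105 and 0.319. All were above the limit of 0.1, but replicate 2 without added Se was more like an array of another number. The reported fits do not pair arrays, and the replicate number enters only as a block among the alternatives. In every other comparison of 2 diets at least 1 number gave an r below that limit. Alternatives were only the 2 groups, trend with robust, array weights, low signal left out, quantile normalization, a replicate block and each array left out. Fits without replicate 1 at 2 μg/g and the recounts of list genes under the alternatives were added after the data were seen. Figures used Python 3.11.15 and matplotlib 3.10.9.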

Additional observations from a re-analysis of the deposited data

How the results depend on the processing

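In rat liver at 5 against 0.24 μg/g the 2 Il33 probe sets were called under every alternative run, and with array weights, where 3184 probe sets were called in all beside 875, that of Orm1 was called too. Array weights raised the member probe sets called from 0 to 3 at 2 against 0.24 μg/g and from 1 to 8 at 5 against 2 μg/g, where all calls rose from 1 to 13048 and from 1037 to 14962. The weights stopped short of their tolerance in some fits. At 5 against 2 μg/g 0 were called with only the 2 groups, and with 1 array left out the count ran from 0 to 5, the most without replicate 3 at 2 μg/g, where 8262 of 31042 probe sets were called in all. At 2 against 0.24 μg/g it ran from 0 to 1, with Il1rn called without replicate 3 at 2 μg/g, where 5800 probe sets were called in all. In mouse liver, mouse kidney, the tissue comparison, Se-deficient rat liver and 0.8 against 0.08 μg/g 0 member probe sets were called under any alternative. The cause was not tested.

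With the replicate number as a block, 2 member probe sets were called at 5 against 0.24 μg/g and 0 at 5 against 2 μg/g (Il33 log2 change −0.91, adjusted p = 0.066). The called genes of the interleukin 1 and NF-kB list numbered 3 with the block, 15 with array weights, 0 to 5 with 1 of the compared arrays left out and 6 without replicate 1 at 2 μg/g, which is not among them, beside 5 as reported. At 5 against 2 μg/g that list had 5 called genes, beside 1 with the block, 0 with only the 2 groups, 3 with low signal left out, 20 with array weights and 0 to 12 with 1 array left out. The called genes of the other positive acute phase list numbered 1 with only the 2 groups, 5 with array weights and 0 to 2 with 1 array left out, beside 2. In mouse liver at 0 against 0.2 μg/g and in the comparison of tissues the block changed no call of a member.

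Fits with an array left out are not in the tally that follows, and some of them lost the Il33 call between 5 and 2 μg/g. Of 718 single member values under the other alternatives 703 stayed on the same side of the threshold. Among the rest 12 passed it, 3 no longer did and 0 reversed a call. The sign of a value that was not called changed in 54. Whether Hp, Fgb, Fgg and Fga were near saturation was not tested, and mouse Il33 and A2m had low signal.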

Other observations

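A2m, Lcn2 and Fgb were also described by the genes most like them over the same 12 rat arrays, with Pearson r given as a description. For A2m these were Nos1ap (0.891), Noct (0.861), Cldn16 (0.789), Btg1 (0.773) and Znrf1 (0.756). For Lcn2 they were Klhl10 (0.873), Tff3 (0.866), Sv2b (0.842), Akr1b7 (0.819) and Odad4 (0.819). By ranks (Spearman) the Lcn2 values were 0.951, 0.608, 0.413, 0.545 and 0.783 in the same order. The 12 arrays include replicate 1 at 2 μg/g, which stood apart. For Fgb, whose level spanned 0.16 on the log2 scale over all 18 rat arrays, they were Smurf2 (0.911), Fkbp10 (0.911), Lcp2 (0.908), Shq1 (0.907) and Gas7 (0.904).

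Some list genes passed the test at 5 against 2 μg/g but not against 0.24 μg/g, and whether the contrasts differ was not tested. Cebpd, a transcription factor of the acute phase, rose by 0.86 ± 0.19 (limma adjusted p = 0.035), Itgb3, an integrin chain that binds fibrinogen, fell by 1.49 on the log2 scale (limma adjusted p = 0.049), and Kdr, a receptor for vascular endothelial growth factor, fell by 0.55 (limma adjusted p = 0.035). These calls were not stable. Without replicate 1 at 2 μg/g, which stood apart, the log2 changes were 0.63, −1.38 and −0.49 with adjusted p of 0.087, 0.15 and 0.12, and with only the 2 diets fitted the adjusted p were 0.21, 0.25 and 0.20.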
